A study of Mus musculus with 20 samples.

Results

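The lysosomal cathepsins described here are 8 genes, Ctsa, Ctsb, Ctsc, Ctsd, Ctsh, Ctsk, Ctsl and Ctsz, taken by name from a table of 34234 genes. All 8 were found, and all 8 passed the filter on low values that left 11586 genes for testing. RNA had been sequenced in bulk from kidney tumours of mice carrying MSRT1 cells, which the labels give as renal medullary carcinoma, with 1 library per mouse. The combination group GYY_PD1 received GYY and an anti-PD1 antibody, the group GYY_IgG received GYY and control IgG, the group Veh_PD1 received vehicle and anti-PD1, and the group Veh_IgG received vehicle and IgG, with 5 mice in each. GYY is GYY4137, a compound that slowly releases hydrogen sulfide, and PD1 is an inhibitory receptor of T cells. All 20 tumours come from the same cell line, and the strain, sex, age, dose and time of treatment are not given in the sources used here. The question put to the table was whether these proteases differ between the treatments, alone or combined.

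Cathepsins are proteases that are made as inactive precursors, sorted to the lysosome and activated at its acid pH. Most are cysteine proteases, whereas Ctsd is an aspartic and Ctsa a serine protease. In tumours they are expressed by the cancer cells and, at high level, by macrophages, and they can be secreted and cleave the matrix around cells. In bulk tumour RNA, fewer cells of a type and less RNA per cell cannot be told apart.

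The letters just before the gene starts show one way in which the members differ. RefSeq windows on GRCm38.p6, from 250 bases before to 50 bases after a gene start, were held for 6 of the 8 members, and Ctsb and Ctsh were not matched. The E-box CACGTG, which reads the same on both strands, and the longer TCACGTGA that contains it were searched, because lysosomal genes are known targets of the TFEB family of factors, which bind such elements. CACGTG was present for Ctsa, Ctsd and Ctsl, 3 of 6 members, against 8.09% of the 27025 genes with a window. The Ctsl window lies inside the span of that gene in the GENCODE M21 annotation, where the gene starts earlier. TCACGTGA was present for Ctsa and Ctsd, 2 of 6, against 1.13% of genes. Ctsa held it 2 times in the window of its later annotated start, 13 bases before and 4 bases after that start, and not in the window of its first start. Ctsd held it 99 bases before its RefSeq start. In the GENCODE M21 annotation Ctsd starts earlier, and this place lies inside the gene (142375911 to 142388038, minus strand). Stretches with TCACGTGA in capitals are shown for Ctsa and Ctsd, and stretches just before the gene start, which hold no match, for the member with the steadiest level, Ctsz, and the one with the most variable level, Ctsc. Each is written 5′ to 3′ on the strand of its gene.
Ctsa, chr2:164833713-164833792, plus strand: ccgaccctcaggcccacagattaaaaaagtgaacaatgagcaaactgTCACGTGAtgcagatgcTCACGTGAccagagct
Ctsd, chr7:142387888-142387967, minus strand: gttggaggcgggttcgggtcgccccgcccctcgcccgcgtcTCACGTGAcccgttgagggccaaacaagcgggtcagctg
Ctsz, chr2:174439040-174439119, minus strand: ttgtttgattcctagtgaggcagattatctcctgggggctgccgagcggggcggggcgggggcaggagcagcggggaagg
Ctsc, chr7:88278005-88278084, plus strand: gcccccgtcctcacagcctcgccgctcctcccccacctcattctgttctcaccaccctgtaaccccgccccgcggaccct
A match of letters is a description of the window and does not show that a factor binds there.

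The deposited values are log2 TPM, where TPM is the share of a gene among all transcripts, corrected for length and scaled to a constant total per library. Nuclear protein-coding genes took 2.91% to 22.3% of all TPM in GYY_PD1 tumours, 12.3% to 39.6% in GYY_IgG, 11.1% to 34.7% in Veh_PD1 and 28.0% to 42.8% in Veh_IgG, so that the ranges of GYY_PD1 and Veh_IgG did not overlap. Most of the rest lay in provisional gene models such as Gm10800, which alone took 64.9% in GYY_PD1 replicate 4. Levels are therefore given as rescaled TPM, that is, TPM rescaled to the same total over 18022 nuclear protein-coding genes. GYY_PD1 replicate 1 stood apart on this scale too. Its median Spearman correlation with the other libraries was 0.486, against 0.894 to 0.973 for each of the others, and Ccdc107 alone took 24.4% of its coding TPM, against a median of 0.0611% elsewhere. Results are given with and without it. As checks of the labelled tumour, Krt8, a keratin of simple epithelia, ranged from 339 to 901 rescaled TPM over the other 19 libraries and Vim, which is common in this cancer, from 1109 to 2520. Smarcb1, the chromatin remodelling subunit that renal medullary carcinoma typically lacks, was present at 40.1 to 109 rescaled TPM over the same 19 libraries. The tumours also hold host cells, and which cells this RNA came from was not tested.

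Of the 8 cathepsins, 5 ranked among the most abundant coding transcripts of these tumours, while Ctsk, Ctsc and Ctsh were lower. Their summed level was 4204, 5013, 5233, 4612 and 5184 rescaled TPM in the GYY_PD1 tumours (replicates 1 to 5), and 4519, 4471, 4250.0, 5451 and 5141 in the GYY_IgG tumours. It was 4224, 4514, 3922, 4767 and 5027 rescaled TPM in the Veh_PD1 tumours and 4775, 4966, 4659, 4825 and 4837 in the Veh_IgG tumours. The 4 groups overlapped, and the highest library exceeded the lowest by a factor of 1.39. The sum of GYY_PD1 replicate 1 was within this range through Ctsa, since the other 7 members summed to 813 rescaled TPM there, against 3539 to 4913 in the other 19 libraries. On the deposited scale the same sum ran from 134 to 2045 TPM, a factor of 15.2.

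Over the 19 libraries other than GYY_PD1 replicate 1, Ctsd, the main aspartic protease of lysosomes, had the highest level, at 1197 ± 164 rescaled TPM (SD), which ranked it 79th of the coding genes. The endopeptidase Ctsl followed at 862 ± 148, then Ctsb, which cuts both within proteins and at their carboxyl end, at 832 ± 81.5. Ctsz, a carboxypeptidase, had 791 ± 74.7. The order of these 4 was firm only at its top, since Ctsd exceeded Ctsl in 17 of 19 libraries, whereas Ctsl exceeded Ctsb in 10 of 19 and Ctsb exceeded Ctsz in 14 of 19. Ctsa, a carboxypeptidase that also protects lysosomal neuraminidase and beta-galactosidase, had 560.4 ± 63.8 rescaled TPM and lay below Ctsz and above Ctsk in all 19. Ctsk, the collagen-degrading cathepsin of osteoclasts, had 251 ± 91.0. Ctsc, a dipeptidyl peptidase that activates granule proteases of leukocytes, had 205 ± 68.6, and Ctsk exceeded it in 11 of 19 libraries only. The aminopeptidase Ctsh was lowest, at 58.9 ± 19.4 rescaled TPM, below Ctsc in all 19 libraries.

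**Figure D1:**
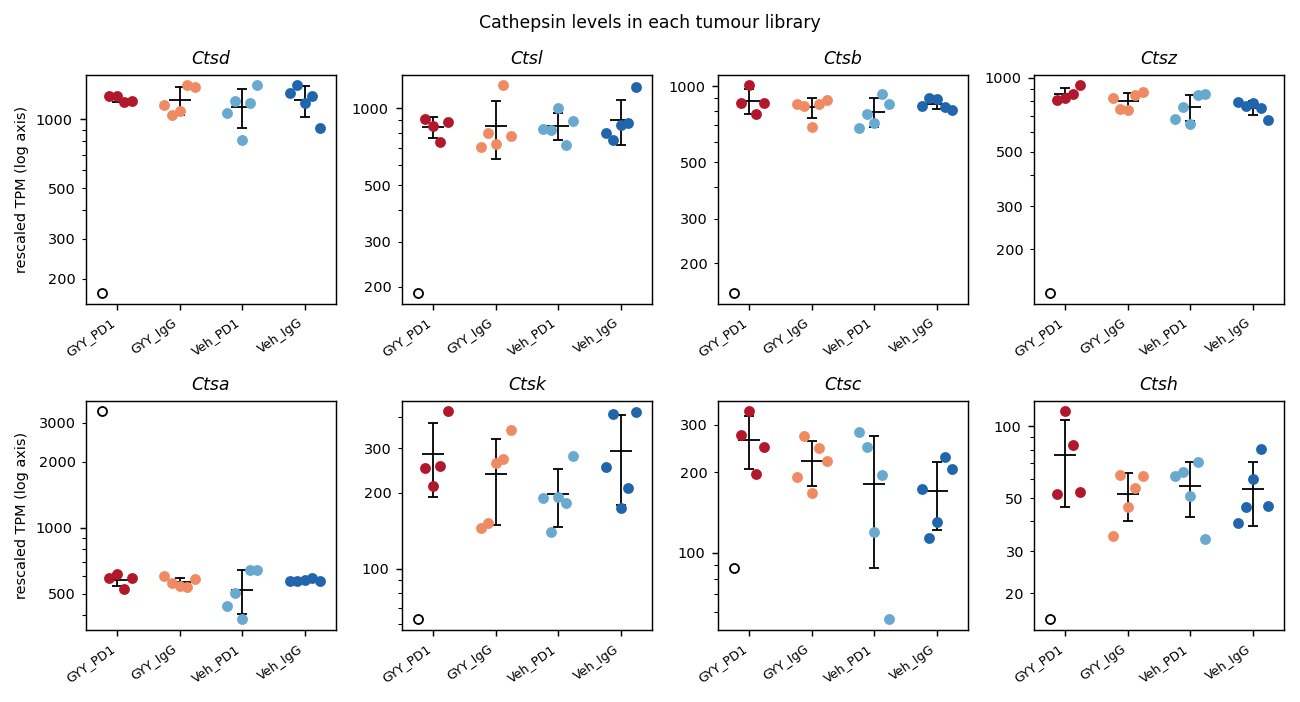
Rescaled TPM (log axis, a separate range for each gene) of the 8 cathepsins in every tumour library, by group; horizontal marks and bars are the mean and SD, and the hollow point is GYY_PD1 replicate 1, which is left out of the mean and SD. Ctsa was 3391 in that library and 526 to 612 in the other GYY_PD1 tumours, whereas the other 7 genes were below the rest of their group there.

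The 4 most abundant members varied by factors of 1.44 (Ctsz) to 1.75 (Ctsl) over the 19 libraries other than GYY_PD1 replicate 1. Ctsd had 173, 1264, 1266, 1186 and 1199 rescaled TPM in GYY_PD1 tumours and 1160.0, 1041, 1084, 1408 and 1383 in GYY_IgG tumours. It had 1062, 1202, 814, 1176 and 1415 in Veh_PD1 tumours and 1311, 1409, 1176, 1267 and 913 in Veh_IgG tumours. The first GYY_PD1 tumour lay far below every other library, and the remaining 4 lay close together within the range of the Veh_IgG tumours.

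Ctsb had 152, 858, 1010.0, 774 and 855 rescaled TPM in GYY_PD1 tumours and 853, 838, 688, 853 and 884 in GYY_IgG tumours. It had 680.0, 777, 713, 934 and 851 in Veh_PD1 tumours and 836, 893, 889, 824 and 801 in Veh_IgG tumours. Leaving the first GYY_PD1 tumour aside, the highest library exceeded the lowest by a factor of 1.49, and each treated group overlapped with Veh_IgG.

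Ctsz had 133, 814, 829, 856 and 934 rescaled TPM in GYY_PD1 tumours and 829, 746, 737, 846 and 870.4 in GYY_IgG tumours. It had 681, 758, 646, 846 and 858 in Veh_PD1 tumours and 792, 767, 788, 749 and 671 in Veh_IgG tumours. With the first GYY_PD1 tumour left out, the other 4 all lay above the 5 Veh_IgG tumours, the closest pair being 814 in GYY_PD1 and 792 in Veh_IgG. Ctsz was the only member whose groups did not overlap in that comparison, and 5.18% of the tested genes did not overlap either.

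Ctsl had 189, 910.5, 849.5, 735 and 884 rescaled TPM in GYY_PD1 tumours and 706, 799, 722, 1233 and 782 in GYY_IgG tumours. It had 828, 820.4, 1002, 721 and 889 in Veh_PD1 tumours and 798, 753, 860.2, 875 and 1212 in Veh_IgG tumours. A single tumour stood high in GYY_IgG and in Veh_IgG, and all groups overlapped.

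Ctsa went the other way in the first GYY_PD1 tumour. It had 3391, 589.6, 612, 526 and 590.4 rescaled TPM in GYY_PD1 tumours and 599.5, 561, 544, 538 and 585 in GYY_IgG tumours. It had 439, 505, 382, 642 and 642 in Veh_PD1 tumours and 573, 572, 581, 592 and 572 in Veh_IgG tumours. The Veh_IgG tumours were almost equal, at 578 ± 8.60 rescaled TPM (SD, n = 5), and the Veh_PD1 tumours were spread on both sides of them.

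Ctsc, Ctsk and Ctsh varied most from mouse to mouse. Ctsc had 87.6, 274, 337, 196 and 248 rescaled TPM in GYY_PD1 tumours and 191, 272, 167, 245 and 220.2 in GYY_IgG tumours. It had 282, 248, 119.7, 195 and 56.5 in Veh_PD1 tumours and 172, 114, 131, 228 and 205 in Veh_IgG tumours. Without the first GYY_PD1 tumour, 3 of the remaining 4 lay above all Veh_IgG tumours and the other lay among them.

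Ctsk had 62.8, 251, 212, 254 and 422 rescaled TPM in GYY_PD1 tumours and 145, 152, 262, 273 and 355 in GYY_IgG tumours. It had 190.3, 140.0, 193, 183 and 281 in Veh_PD1 tumours and 252, 411, 174, 209 and 417 in Veh_IgG tumours. The Veh_PD1 tumours lay in the lower part of the Veh_IgG range or just below it, apart from 1 tumour. Ctsh ranged from 15.6 to 116 rescaled TPM in GYY_PD1, from 34.6 to 62.6 in GYY_IgG, from 33.9 to 70.9 in Veh_PD1 and from 39.4 to 80.2 in Veh_IgG, and its groups overlapped as well.

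The members differed in their spread between replicates. On the log2(rescaled TPM + 1) scale over 19 libraries, the SD within groups was 0.13 for Ctsz, 0.15 for Ctsb and 0.18 for Ctsa, which is below the SD of all but 2.49%, 5.53% and 16.6% of the tested genes. Ctsd had an SD of 0.22 and Ctsl of 0.24, near the median of 0.26 over all 11586 tested genes. Ctsh had 0.43, Ctsk 0.49 and Ctsc 0.57, above 80.6%, 85.2% and 88.5% of the tested genes. The median SD of the 2048 genes above 100 rescaled TPM, a level that Ctsc and Ctsk exceeded on average, was 0.23.

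**Figure D2:**
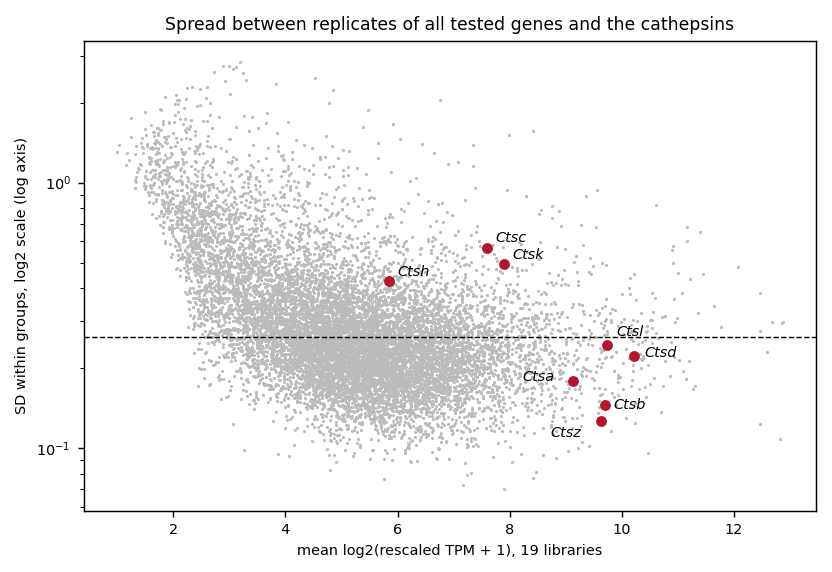
SD within groups on the log2 scale (vertical, log axis) against the mean log2(rescaled TPM + 1) over 19 libraries (horizontal) for every tested gene, with the 8 cathepsins in red and the median SD of all genes as a dashed line. Ctsz, Ctsb and Ctsa lie under the line at 0.13 to 0.18, and Ctsh, Ctsk and Ctsc above it at 0.43 to 0.57.

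The combination was set against vehicle and IgG first. No cathepsin differed between GYY_PD1 and Veh_IgG at an adjusted p under 0.05 (limma across all tested genes, Benjamini-Hochberg), and 0 members had an unadjusted p under 0.05. All 8 overlapped between these groups, where 3.17% of tested genes did not. Among all 11586 genes 0% passed, with 1710 at an unadjusted p under 0.05. The log2 difference of GYY_PD1 minus Veh_IgG was 0.51 for Ctsa, 0.34 for Ctsc, 0.01 for Ctsh, -0.35 for Ctsz, -0.42 for Ctsk, -0.46 for Ctsb, -0.50 for Ctsl and -0.53 for Ctsd, with adjusted p of 0.377 to 0.984. The median of the 8 was -0.39, beside -0.27 for all tested genes.

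These values rested on GYY_PD1 replicate 1. Without it, the difference was 0.00 for Ctsa (95% interval -0.26 to 0.27), 0.04 for Ctsb (-0.20 to 0.27), 0.03 for Ctsd (-0.29 to 0.35) and -0.07 for Ctsl (-0.41 to 0.26). Ctsz had a difference of 0.19 (-0.03 to 0.41, limma adjusted p = 0.416). The bounds of these 5 intervals lay between -0.41 and 0.41. Wider intervals were found for the other 3 members, with 0.65 for Ctsc (-0.06 to 1.36, limma adjusted p = 0.378), 0.44 for Ctsh (-0.10 to 0.98) and -0.00 for Ctsk (-0.62 to 0.62). In this fit too 0 members passed, with 0 at an unadjusted p under 0.05. Among all 11586 genes 0.069% (8 genes) passed, and 1718 had an unadjusted p under 0.05. The median of the 8 members was 0.03, beside -0.01 for all genes.

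**Figure D3:**
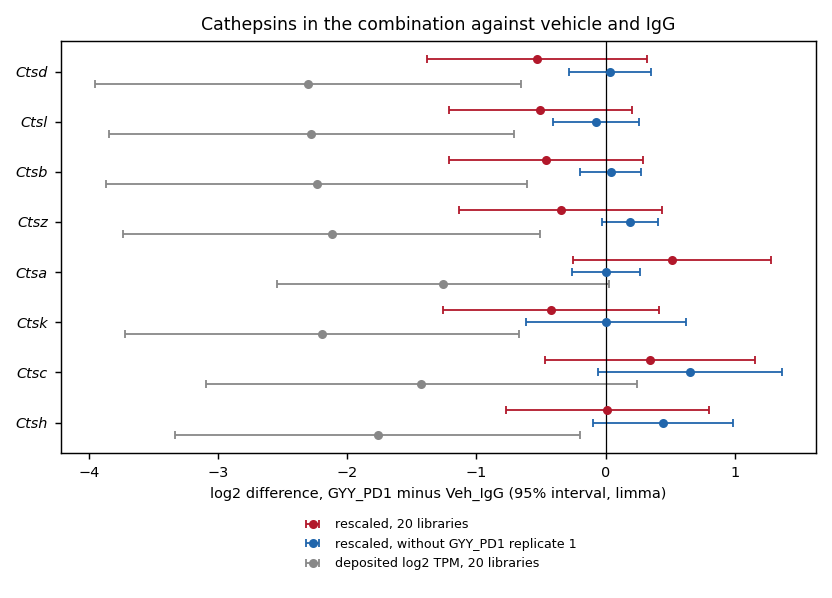
Log2 difference of GYY_PD1 minus Veh_IgG for each cathepsin with its 95% interval from limma, on rescaled TPM with all 20 libraries, on rescaled TPM without GYY_PD1 replicate 1, and on the deposited log2 TPM. Without that library Ctsa, Ctsb and Ctsd lie at 0.00 to 0.04, and on the deposited scale all 8 lie between -1.26 and -2.31.

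On the deposited scale the same comparison read differently. There 6 of 8 cathepsins were lower in GYY_PD1 than in Veh_IgG at an adjusted p under 0.05 (limma), while 69.9% of the 15422 genes tested on that scale were also called lower. Ctsb had 6.66, 192, 195, 22.5 and 139 deposited TPM in GYY_PD1 tumours, against 358, 250, 282, 241 and 297 in Veh_IgG tumours, a log2 difference of -2.24 (limma adjusted p = 0.0236). Each GYY_PD1 tumour lay below each Veh_IgG tumour for Ctsb, and likewise for Ctsa, Ctsd, Ctsl and Ctsz, as it did for 48.9% of all genes. The share of TPM in coding genes moved with these values. The median difference was -2.16 for the members and -2.09 for all genes. Ctsa, at -1.26 (limma adjusted p = 0.0725), and Ctsc, at -1.43 (limma adjusted p = 0.112), did not pass. Without GYY_PD1 replicate 1 no member passed on this scale, with a smallest limma adjusted p of 0.0599 and 6 members at an unadjusted p under 0.05. In that fit 10255 of the 15422 genes also had an unadjusted p under 0.05, and 13 passed. The median of all genes was -1.50.

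**Figure D4:**
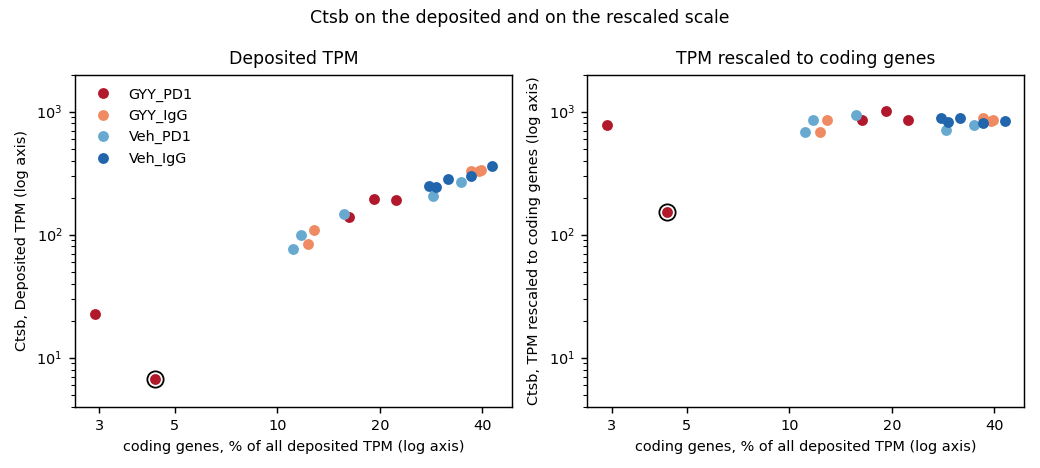
Ctsb in each library (log axis) as deposited TPM on the left and as rescaled TPM on the right, against the share of deposited TPM held by coding genes (log axis); the ringed point is GYY_PD1 replicate 1. In the other 19 libraries deposited Ctsb was higher at a higher the coding share over a 15.9-fold range, while rescaled Ctsb stayed between 680.0 and 1010.0.

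Neither agent alone was accompanied by a called change in a cathepsin. In GYY_IgG against Veh_IgG, 0 members passed limma and 0 had an unadjusted p under 0.05, beside 0% of all genes called and 66 genes at an unadjusted p under 0.05. All 8 overlapped, where 1.12% of genes did not. The member with the smallest p was Ctsc, at 0.39 on the log2 scale (95% interval -0.42 to 1.21, limma adjusted p = 1.00), and the median of the 8 was -0.04, beside 0.04 for all genes. Ctsc averaged 219 ± 41.9 rescaled TPM in GYY_IgG tumours and 170.0 ± 48.2 in Veh_IgG tumours (SD, n = 5 each). In the fit without GYY_PD1 replicate 1, whose residual spread is smaller, the interval of Ctsc was -0.28 to 1.06 (limma adjusted p = 0.998). That of Ctsz was -0.11 to 0.30, against -0.69 to 0.88 with all libraries. In that fit too 0 members passed or had an unadjusted p under 0.05, beside 387 of all genes at an unadjusted p under 0.05.

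In Veh_PD1 against Veh_IgG, 0 members passed limma and 0 had an unadjusted p under 0.05, beside 0% of all genes called and 92 genes at an unadjusted p under 0.05. The groups overlapped for all 8, and did not for 0.699% of genes. Ctsk came closest, at -0.51 on the log2 scale (95% interval -1.35 to 0.33, limma adjusted p = 1.00). Ctsk averaged 197 ± 51.5 rescaled TPM in Veh_PD1 tumours and 293 ± 114 in Veh_IgG tumours (SD, n = 5 each). In the fit without GYY_PD1 replicate 1, whose residual spread is smaller, its interval was -1.10 to 0.07 and its adjusted p 0.872 (limma). In that fit 0 members had an unadjusted p under 0.05, beside 538 of all genes. The spread is estimated over all 4 groups, so that GYY_PD1 replicate 1 widens it in this comparison too.

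The combination was also set against each agent alone. In GYY_PD1 against Veh_PD1, 0 members passed limma and 0 had an unadjusted p under 0.05, with 0% of all genes called and 1262 at an unadjusted p under 0.05. All 8 overlapped with and without GYY_PD1 replicate 1, where 0.941% and 2.16% of genes did not. The member with the smallest p was Ctsa, at 0.69 (95% interval -0.08 to 1.46), a value that became 0.18 (-0.09 to 0.44) without GYY_PD1 replicate 1. In that fit Ctsc had a difference of 0.73 (0.02 to 1.44), the single member difference below an unadjusted threshold of 0.05 in the 6 comparisons of that fit, with a limma adjusted p of 0.378. In the same comparison and fit, 1496 of 11586 genes had an unadjusted p under 0.05. Ctsc averaged 264 ± 58.5 rescaled TPM in those 4 GYY_PD1 tumours and 180.2 ± 92.3 in the 5 Veh_PD1 tumours (SD), and 1 Veh_PD1 tumour exceeded 3 of the 4.

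In GYY_PD1 against GYY_IgG, 0 members passed limma and 0 had an unadjusted p under 0.05, with 0% of all genes called and 1166 at an unadjusted p under 0.05. The 8 members overlapped here too, where 1.32% of genes did not, and 2.1% without GYY_PD1 replicate 1. Ctsa was again first, at 0.54 (95% interval -0.22 to 1.31), and its difference was 0.03 (-0.23 to 0.30) without GYY_PD1 replicate 1. Ctsh had 0.49 (-0.05 to 1.04, limma adjusted p = 0.728) in that fit. The interaction, which asks whether the effect of GYY differs with the antibody, called 0 members, 0 of them at an unadjusted p under 0.05, and 0% of all genes, with 169 genes at an unadjusted p under 0.05. The interaction of Ctsa was 0.72 (-0.36 to 1.81), and 0.21 (-0.15 to 0.58) without GYY_PD1 replicate 1. That of Ctsk was 0.81 (-0.04 to 1.66) without that library, with a limma adjusted p of 1.00. The comparisons with GYY_PD1 share the same combination tumours, and those with Veh_IgG the same control tumours.

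GYY_PD1 replicate 1 separated Ctsa from the other cathepsins. Ctsa was 5.91 times the median of the other 19 libraries there. The other members were at 0.145 (Ctsd) to 0.429 (Ctsc) of that median. The median tested gene deviated by -1.39 on the log2 scale in this library, and Ctsa, at 2.56, lay above 94.9% of the tested genes, while Ctsd, at -2.78, lay above 11.8%. Genes with a sequence on the other strand at the same place may share reads with a member, since the strand used for counting is not given in the sources used here. Whether such sharing bears on the level of any member, in this library or elsewhere, was not tested. On mm10 with the GENCODE M21 annotation, Ctsa (chromosome 2, 164832873 to 164841032, plus strand) overlaps Neurl2 and Pltp on the opposite strand. Ctsb (chromosome 14, 63122462 to 63145923, plus strand) overlaps Fdft1, Ctsz (chromosome 2, 174427493 to 174439039, minus strand) overlaps Nelfcd, and Ctsc (chromosome 7, 88278085 to 88310888, plus strand) overlaps Gm26522, each on the opposite strand. Ctsd (chromosome 7, 142375911 to 142388038, minus strand) shares its strand with the overlapping model Gm49369, and Ctsl (chromosome 13, 64359337 to 64370890, minus strand) with a processed pseudogene, Gm49230, and lies opposite Gm47123. Only Ctsh (chromosome 9, 90054152 to 90076089) and Ctsk (chromosome 3, 95499256 to 95509362), both on the plus strand, overlap no other annotated gene.

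**Figure D5:**
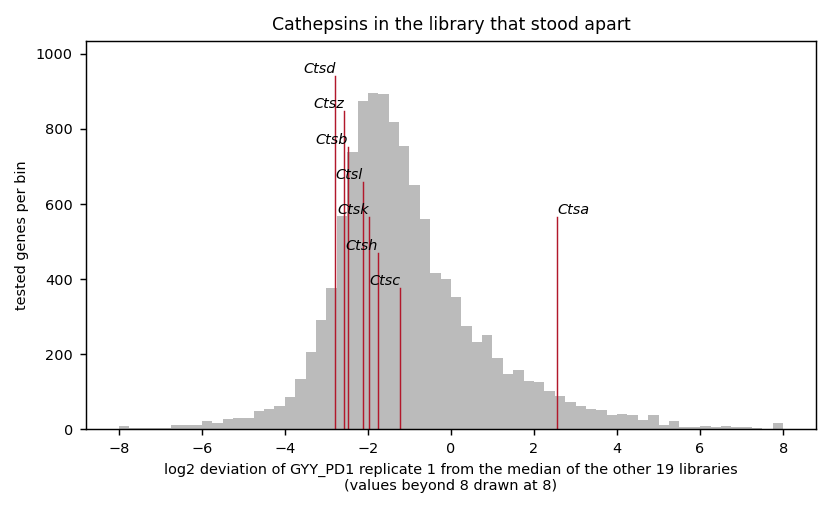
Histogram of the log2 deviation of every tested gene in GYY_PD1 replicate 1 from the median of the other 19 libraries (horizontal; genes per bin, vertical), with the 8 cathepsins marked by red lines whose heights only separate the labels. Ctsa lies at 2.56, and the other 7 lie between -2.78 and -1.22, around the bulk of the genes.

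The cathepsins did not vary as 1 block. Over 19 libraries, Spearman's rho between members was above 0.5 in 5 of 28 pairs, with a median of 0.08, as a description of libraries that share groups and a common total. Ctsa and Ctsb were closest (rho 0.72), followed by Ctsd with Ctsz (0.60) and Ctsc with Ctsh (0.59). Ctsb with Ctsz and Ctsa with Ctsz each had a rho of 0.55. Of these 5 pairs, 4 lay among Ctsa, Ctsb, Ctsd and Ctsz. Ctsk and Ctsl had no pair above 0.5, and the lowest rho was -0.31, between Ctsh and Ctsk.

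Over all 20 libraries, the tested gene with the pattern most like Ctsz was that of Chmp4b, an ESCRT-III subunit that remodels endosomal membranes (Spearman's rho 0.93, and 0.92 over the 18 without GYY_PD1 replicates 1 and 4). Ctsd was most like Pex14, a peroxisomal import protein (0.86 and 0.84), and then Naglu, a lysosomal enzyme of heparan sulfate breakdown (0.82 and 0.78). Ctsc was most like Pla2g16 (0.84 and 0.87), the interferon-inducible GTPase gene Irgm2 (0.84 and 0.83) and Aif1, a marker of macrophages (0.83 and 0.88). Ctsb was most like Abi1, a regulator of actin (0.85 and 0.81), Ctsh like Aldh1l1 of folate metabolism (0.85 and 0.86), Ctsk like the kinase Stk38l (0.87 and 0.85) and Ctsa like Hbp1 (0.79 and 0.72). Of the 3 genes most like each over 20 libraries, Prex1 (0.82) exceeded Abi1 for Ctsb and Evpl (0.74) exceeded Hbp1 for Ctsa over the 18. Ctsl had the least similar nearest gene, the histone gene Hist1h2bh (0.65 and 0.59). Each gene was picked for the highest rho among all tested genes, so that high values were bound to be found by the picking alone. The 18 libraries are part of the 20 used for the picking, so the rho over them is not a separate check. Whether any of these genes is tied to a cathepsin was not tested.

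The rest of the lysosomal pathway was examined by lists, in GYY_PD1 against Veh_IgG, where 0% of all genes were called. Of 14 other cathepsins, 4 were high enough to test, and 0 passed limma, with 0 at an unadjusted p under 0.05. Ctss, the cathepsin that processes the invariant chain in antigen-presenting cells, had a difference of -0.03 with all libraries and 0.39 without GYY_PD1 replicate 1. Ctse had 0.56 and 1.15 (limma adjusted p = 0.508 and 0.249), Ctsf -0.82 and -0.14, and Ctso -0.25 and 0.12. Without that library 1 of these 4 had an unadjusted p under 0.05, as did 1718 of all 11586 tested genes. Of 10 cathepsin inhibitors, 6 were tested and 0 passed, with 0 at an unadjusted p under 0.05 and 1 without GYY_PD1 replicate 1. Cstb, an inhibitor of cysteine cathepsins within cells, had -1.24 with all libraries and -0.14 without GYY_PD1 replicate 1. Cst3, the secreted cystatin C, had -0.27 and 0.29 in these fits, and Stfa2l1, of the stefin A family, 0.92 and 2.11 (limma adjusted p = 0.557 and 0.236).

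Lysosomal hydrolases and membrane proteins mostly had negative differences, none of which passed the test, as did the median tested gene (-0.27 with all libraries, with 1710 of 11586 genes at an unadjusted p under 0.05). Without GYY_PD1 replicate 1, 1718 of the 11586 genes had an unadjusted p under 0.05. Of 33 lysosomal enzymes, 0 passed limma and 29 had a negative difference, with 4 at an unadjusted p under 0.05; their median was -0.47 with all libraries and -0.10 without GYY_PD1 replicate 1, where 24 were negative and 1 had an unadjusted p under 0.05. Galc, the galactosylceramidase, had -0.79 and -0.37 in these fits, Neu1, the neuraminidase that Ctsa protects, -0.56 and -0.23, and Idua, the iduronidase, 0.51 and 0.33. Of 31 membrane and acidification genes, 0 passed limma and 29 had a negative difference, with 11 at an unadjusted p under 0.05 and 6 without GYY_PD1 replicate 1, where 26 were negative. Their median was -0.62 and -0.18, beside -0.27 and -0.01 for all tested genes. Ctns, which exports cystine from the lysosome, had -0.63 and -0.48 (limma adjusted p = 0.272 and 0.213), and Atp6v0b, a subunit of the proton pump, -1.08 and -0.50 (limma adjusted p = 0.314 and 0.198). Of 13 sorting and regulation genes, 0 passed, with 0 at an unadjusted p under 0.05 and 1 without that library, and their median was -0.15 and 0.04. Gnptab, which makes the mannose 6-phosphate tag of lysosomal proteins, had -0.64 and -0.20. Grn, the precursor of granulins, had -0.72 and -0.16 in these fits.

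Markers of other cell types varied as well. In GYY_PD1 against Veh_IgG 0 markers passed limma in any of the 10 lists. The summed level of 12 macrophage markers ranged from 1295 to 5225 rescaled TPM in GYY_PD1 tumours (3436 to 5225 without replicate 1) and from 4133 to 5324 in Veh_IgG tumours. Without GYY_PD1 replicate 1, 5 of the 12 had a positive and 7 a negative difference, with a median of -0.10; the scavenger receptor gene Cd163, at -1.69, had the smallest adjusted p (limma, 0.125). The 6 monocyte markers summed to 149 to 1040.0 rescaled TPM in GYY_PD1 (350.5 to 1040.0 without replicate 1) and to 249.6 to 415 in Veh_IgG, and the 8 neutrophil markers to 15.7 to 5958 in GYY_PD1 (357 to 5958 without replicate 1) and to 93.7 to 1878 in Veh_IgG. The 7 T cell markers with a value summed to 30.6 to 83.4 rescaled TPM in GYY_PD1 tumours (30.6 to 51.8 without replicate 1) and to 6.38 to 11.2 in Veh_IgG tumours, so that these groups did not overlap. Only 4 T cell markers were high enough to test, and the highest sum was that of replicate 1. Of single tested genes, 3.17% did not overlap between these groups, and 5.18% without replicate 1. Coding genes at 1 rescaled TPM or more numbered 14131 to 16613 in GYY_PD1 tumours and 12422 to 13981 in Veh_IgG tumours. Whether this raised the sums of low markers was not tested. The part of these cell types in the levels of Ctsc and Ctsh was not tested. For Ctsk, 5 of 9 osteoclast markers were high enough to test, and the list summed to 52.4 to 202 rescaled TPM in GYY_PD1 tumours (108 to 202 without replicate 1) and to 83.0 to 118 in Veh_IgG tumours. The 9 fibroblast markers summed to 70.3 to 3097 in GYY_PD1, 44.1 to 243 in Veh_PD1 and 27.45 to 494 in Veh_IgG tumours. In Veh_PD1 against Veh_IgG all 8 tested fibroblast markers had a negative difference, with a median of -1.05 and 0 at an unadjusted p under 0.05. The median of all genes was -0.04 there. The part of either cell type in the level of Ctsk was not tested.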

How the data were processed

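The authors deposited log2 TPM for 34234 genes in 20 libraries; per the submitters' processing notes cutadapt, fastp, Salmon 0.14.1, HTSeq 0.11.0 and mm10 were used, and which of them made the TPM is not given in the sources used here. A floor of -8.879 was read as 0 TPM. Read numbers cannot be recovered from TPM, so depth is unknown and counting error is not stated separately. TPM were rescaled to a constant total over 18022 nuclear protein-coding genes (GENCODE M21, without Gm-number models and olfactory and vomeronasal receptors). After log2(value + 1), genes with at least 5 rescaled TPM in at least 5 libraries (11586) were fitted in R 4.3.3 with limma 3.58.1, 1 model of 4 groups, trended shrinkage, 16 residual degrees of freedom, two-sided, adjusted over all genes, at 0.05; folds understate changes of low genes. The labels call the samples biological replicates. Named were all 8 members and up to 4 genes of each list by smallest p in GYY_PD1 against Veh_IgG. Of the 3 genes most like each member, the first was named, with further ones for Ctsa, Ctsb, Ctsc and Ctsd only. Members and lists were chosen with earlier results of these data known. The fit was tried on simulated data that took the gene means and residual spreads of the 19 libraries without GYY_PD1 replicate 1. That trial does not cover the larger spread of the main fit with all 20 libraries. Alternatives were other scalings, pseudocounts, filters, library weights, a replicate block and left-out libraries. Promoter letters are from RefSeq.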

Additional observations from a re-analysis of the deposited data

Results flagged for a closer look

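Within each group of 5, the highest or lowest library was compared with its nearest neighbour by Dixon's criterion (0.71 of the range) for the members and their sum, 36 groups in all. The criterion was met 7 times, and chance meets it in about 1 of 20 groups; 5 of the 7 are the same library, GYY_PD1 replicate 1. In that library Ctsa had 3391 rescaled TPM, against 526 to 612 in the other GYY_PD1 tumours. Ctsb had 152 rescaled TPM there, against 774 to 1010.0, and Ctsd 173, against 1186 to 1266. Ctsl had 189 rescaled TPM, against 735 to 910.5, and Ctsz 133, against 814 to 934. The remaining flags fell in GYY_IgG: Ctsb had 688 rescaled TPM in replicate 3, against 838 to 884 in the others, and Ctsl had 1233 in replicate 4, against 706 to 799.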

How the results depend on the processing

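On the deposited log2 TPM, 6 members were called in GYY_PD1 against Veh_IgG, as were 10831 of all 15422 genes. The median of the 8 was -2.16 there, -0.96 in Veh_PD1 against Veh_IgG, -1.10 in GYY_PD1 against Veh_PD1 and -1.60 in GYY_PD1 against GYY_IgG. The medians of all genes were -2.09, -0.90, -1.17 and -1.69 in the same order. With GYY_PD1 replicate 1 also left out, a setting chosen after seeing the data, as was its pairing with the library median, the medians of the 8 were -1.45 in GYY_PD1 against Veh_IgG, -0.96 in Veh_PD1 against Veh_IgG and -0.95 in GYY_PD1 against GYY_IgG. Those of all genes were -1.50, -0.90 and -1.09. Of the 48 differences of 8 members in 6 comparisons, none of which passed in the main setting, 16 turned sign on the deposited scale. Among them, with all libraries and without GYY_PD1 replicate 1, were Ctsa (-1.26 and -1.48), Ctsc (-1.43 and -0.82) and Ctsh (-1.77 and -1.03) in GYY_PD1 against Veh_IgG. So were Ctsc in GYY_IgG against Veh_IgG (-0.044 in both) and Ctsa in GYY_PD1 against Veh_PD1 (-0.21 and -0.43) and against GYY_IgG (-0.79 and -1.01). The deposited scale divides by all TPM, of which coding genes hold a changing share.

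Of the same 48, 17 turned sign without GYY_PD1 replicate 1, 6 of them in GYY_PD1 against GYY_IgG, 19 without GYY_PD1 replicates 1 and 4, 17 without the mice numbered apart and 21 with library weights. The mice numbered apart, whose label numbers lie away from the rest, are GYY_PD1 replicate 1 and GYY_IgG replicate 5. These settings are not separate checks, since each removes GYY_PD1 replicate 1 or gives it little weight. Its library weight was 0.015, against 0.413 to 2.92 for the others. In GYY_PD1 against Veh_IgG, the turned values with library weights were 0.058 for Ctsb, 0.042 for Ctsd, 0.18 for Ctsk and 0.18 for Ctsz. Without GYY_PD1 replicates 1 and 4 they were 0.094 for Ctsb, 0.048 for Ctsd, 0.037 for Ctsk and 0.19 for Ctsz, and without the mice numbered apart 0.037 for Ctsb, 0.031 for Ctsd and 0.19 for Ctsz. Ctsz was 0.036 relative to the median of the 4000 highest genes. Relative to the library median without GYY_PD1 replicate 1, Ctsz was 0.13 and Ctsa -0.051. Leaving out each library in turn gave -0.64 to 0.037 for Ctsb, -0.69 to 0.031 for Ctsd, -0.26 to 0.44 for Ctsh and -0.51 to 0.19 for Ctsz. The other pseudocounts and filters turned 0 of 48 signs and made no call. Same-numbered libraries correlated above 0.1 in 12 of 30 pairs (-0.39 to 0.39), and 4 of 20 libraries were closest to their own number. These values show no clear pairing of the mice by replicate number, but they cannot exclude one. With the replicate block 0 members were called and the median in GYY_PD1 against Veh_IgG was -0.39. Depth is unknown, so the precision of low values cannot be judged.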

Other observations

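Other cell type markers are given as summed levels, and none of them passed limma in GYY_PD1 against Veh_IgG. The 7 dendritic cell markers summed to 30.1 to 146 rescaled TPM in GYY_PD1 tumours (30.1 to 74.4 without replicate 1) and to 10.9 to 30.3 in Veh_IgG tumours. The lowest GYY_PD1 sum lay just below the highest Veh_IgG sum, so that the groups overlapped. Of the 7 dendritic cell markers, only 2 were high enough to test, and the sum of 146 was that of replicate 1. The 6 adipocyte markers reached 4434 rescaled TPM in 1 GYY_PD1 tumour, against a highest value of 296 in Veh_IgG tumours. Their median sum was 112 rescaled TPM in GYY_PD1 and 93.6 in Veh_IgG. The T cell receptor component Cd3g had a log2 difference of 2.26 in GYY_PD1 against Veh_IgG (limma adjusted p = 0.201) and of 2.11 without GYY_PD1 replicate 1 (limma adjusted p = 0.0943). In GYY_PD1 replicate 1, Tlcd1 and Ccdc152 each took about 0.9% of coding TPM (0.944% and 0.907%), against medians of 0.00163% and 0.000551% in the other 19 libraries.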
